A study of Mus musculus with 10 samples.

Results

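A set of 10 genes whose products move calcium across the membrane of the endoplasmic reticulum (ER), or refill it from outside the cell, was followed in mouse pancreatic islets. They were taken from the table by symbol, and the set was put together with earlier results of these data known: the ER calcium pumps Atp2a2 and Atp2a3, the release channels Itpr1, Itpr2, Itpr3 and Ryr2, the store sensors Stim1 and Stim2, and the plasma membrane channels Orai1 and Orai3. All 10 were among the 27665 genes of the deposited table. Islets came from male C57BL/6J mice, given as 8 to 10 weeks of age, whose diet over 4 weeks was western diet or standard chow, with 5 mice and 5 libraries in each group. Islets were processed at once after isolation. The mice carried no allele or agent beyond the diet, as far as the labels say. All chow mice came from cage 3, while 4 western diet mice came from cage 4 and 1 from cage 2, so that diet and cage cannot be told apart. Mice are named below by diet, cage and number. Values in a group of 5 are listed as cage 4 mouse 1, 2, 5, 4 and the cage 2 mouse for western diet. For chow they run from mouse 1 to 5. The p-values measure the spread between mice, mostly of the same cage, and hold little of any spread between cages.

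The ER is the main calcium store of the beta cell, and its chaperones need high calcium to fold proinsulin. SERCA pumps fill the store, and inositol trisphosphate (IP3) receptors and ryanodine receptors empty it into the cytosol after stimulation. When ER calcium falls, STIM proteins in the ER membrane change shape, move to the plasma membrane and open ORAI channels, a route called store-operated calcium entry. STIM1 responds to strong depletion, and STIM2 to smaller decreases near the resting level.

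Total counts ran from 16532518 to 23902681 reads per library. Values are CPM (read counts scaled to a common library size with TMM factors), and differences are given as log2 fold change (western diet relative to chow) with the standard error (SE). The edgeR quasi-likelihood test covered 15104 genes, with Benjamini-Hochberg adjustment, and "called" means that the adjusted p lay under 0.05. Islet identity was read from Ins1, Ins2 and 7 further beta cell markers, which summed to 242000 to 276700 CPM on western diet and 230900 to 267000 on chow. These sums are mostly Ins1 and Ins2, which were not called, while G6pc2 (0.47) and Iapp (0.19) rose and Slc2a2 (-0.54) fell (edgeR adjusted p = 3.82e-05, 0.0193 and 0.00748). Acinar markers of the surrounding exocrine tissue summed to 906.2 to 5935 and 718.7 to 2905 CPM, with 0 of 10 called. Immediate early and heat shock genes were called lower in 13 of 13 cases, against 5.5% of all genes tested. Their list was chosen with earlier results of these data known. In sum they had 16190 to 20040 CPM on chow and 8950 to 11060 on western diet. Such genes can respond to handling, and their part in the results that follow was not tested. These are bulk libraries, in which fewer cells of a type and less RNA per cell cannot be told apart.

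Stim2 rose and Itpr3 fell on western diet, and the other 7 genes tested were not called. Stim2 was 1.37-fold higher, and Itpr3 was at 0.79 of its chow level. Ryr2 was too low to test. Across all genes tested 5.27% rose, 5.5% fell and 10.8% were called in either direction, and with 9 genes, 2 calls are too few to set this group apart from that share. The same 2 genes had libraries that did not overlap between the diets, which held for 8.85% of all genes. The median log2 fold change was 0.10 over the 9 genes and 0.0050 over all genes tested.

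**Figure D1:**
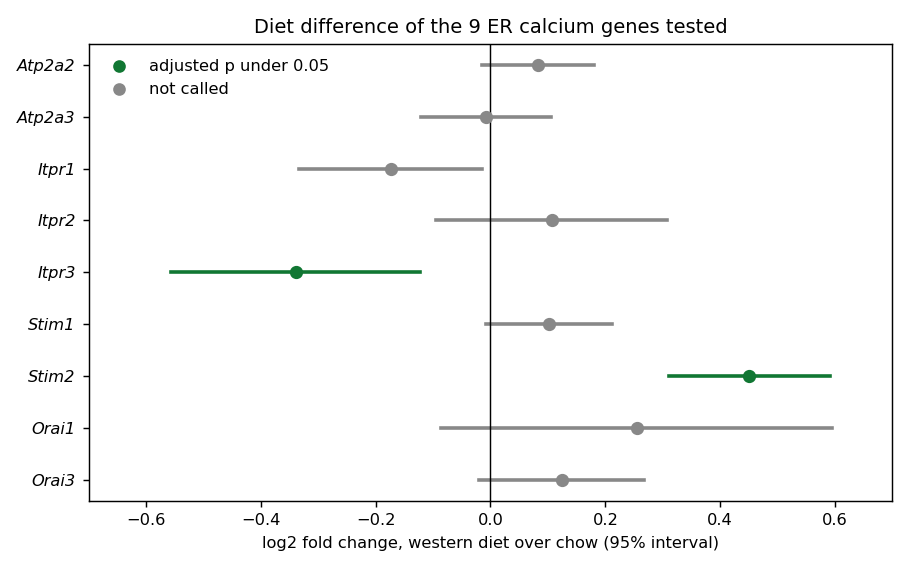
Log2 fold change of western diet over chow (x axis, points) with its 95% interval (lines) for the 9 genes tested by edgeR, n = 5 per diet. Only the intervals of Stim2 (0.45) and Itpr3 (-0.34) belong to genes with an adjusted p under 0.05.

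The members spanned a wide range of levels when counts were divided by gene length, given here as CPM per kilobase over all 10 libraries. The pump Atp2a2, which encodes SERCA2, was highest at 365.8 ± 18.9 (SD, n = 10) and exceeded 99.7% of the genes tested. Atp2a3, which encodes SERCA3, followed at 269.6 ± 16.1, and the ranges of the pumps did not overlap. Below them lay a middle group of Orai3 (14.7 ± 1.204), Itpr3 (13.6 ± 2.47), Stim1 (12.9 ± 0.82), Stim2 (9.99 ± 1.81) and Itpr1 (7.90 ± 0.92), in which each gene's range overlapped that of the next. Itpr2 (2.47 ± 0.30) and Orai1 (2.25 ± 0.43) were lower and overlapped each other. Ryr2 stood far below all of these at 0.0057 ± 0.0040. Lengths are those of the deposited table and equal the union of annotated exons for 9 of the 10 genes, so that a gene with many seldom used exons is understated.

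**Figure D2:**
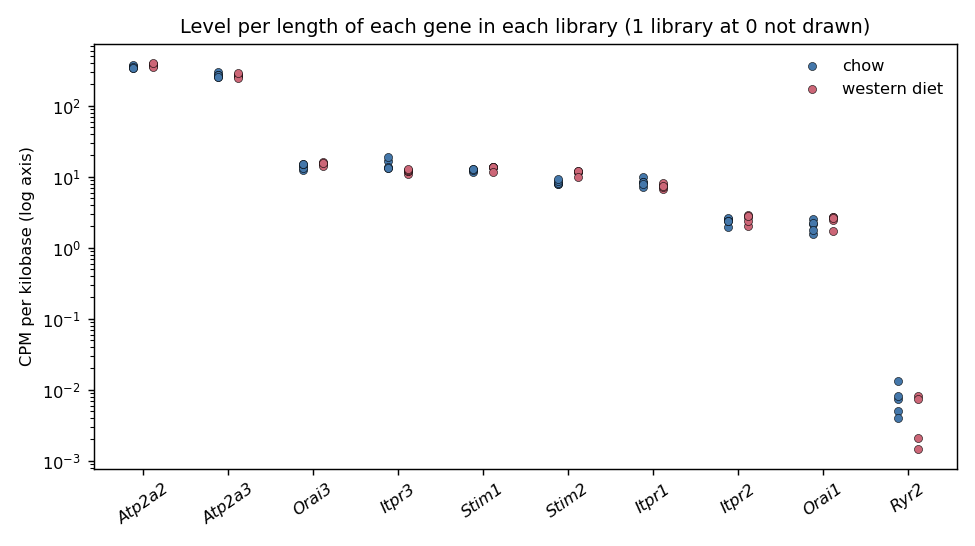
CPM per kilobase of gene length (y axis, log scale) in each chow and western diet library (points) for the 10 genes, ordered by their mean. The pumps Atp2a2 and Atp2a3 lie above 248 in every library, Ryr2 reaches at most 0.0132, and its 1 library at 0 is not drawn.

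Both pump genes were abundant and neither was called. Atp2a2 (ENSMUSG00000029467, GRCm38 chromosome 5, 122453513 to 122502225, minus strand) encodes SERCA2, whose widely expressed form fills the ER of most cells. Its levels were 2335, 2192, 2373, 2131 and 2411 CPM on western diet and 2084, 2201, 2249, 2169 and 2100 CPM on chow. The diets overlapped, and the log2 fold change was 0.08 ± 0.05 (SE, edgeR adjusted p = 0.264), with a 95% interval from -0.01 to 0.18. Atp2a3 (ENSMUSG00000020788, chromosome 11, 72961169 to 72993044, plus strand) encodes SERCA3, a pump of lower calcium affinity found in beta cells. It ranged from 1310 to 1553 CPM on western diet and from 1339 to 1567 CPM on chow, with a log2 fold change of -0.0083 ± 0.05 (edgeR adjusted p = 0.942) and an interval from -0.12 to 0.11. Splice forms of either gene were not told apart by counts per gene. Gm43361, an uncharacterised transcript on the opposite strand, shares 83 exon bases with Atp2a2, and it had 64 to 362 reads per library against 36383 to 57591 for Atp2a2.

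Within a library, the share of a gene in its family does not depend on how libraries are scaled. The 6 such shares were tested, in counts per kilobase, with two-sided exact permutation tests adjusted over the 6. Atp2a2 made up 58.4% ± 0.582 of the SERCA pair on western diet and 56.8% ± 1.09 in chow libraries (SD, n = 5 each), a difference of 1.53 percentage points (exact permutation p = 0.0238, adjusted 0.0476). The single values were 58.8, 58.2, 58.8, 58.6 and 57.4% on western diet and 57.1, 54.9, 57.5, 56.9 and 57.7% on chow. The overlap came from the cage 2 mouse, which lay below chow mice 3 and 5. Without chow mouse 2, the lowest library, the difference was 1.06 points (exact permutation, adjusted p = 0.0952), and the call was lost in 9 of the 10 cases with 1 mouse left out, where 9 libraries also allow no p below 0.0159.

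Of the IP3 receptors, tetrameric channels that open when IP3 and calcium bind, Itpr3 fell and the others were not called. Itpr3 (ENSMUSG00000042644, chromosome 17, 27057304 to 27122223, plus strand) was the most abundant of the 3 per kilobase. In CPM, with no division by length, Itpr1 had the higher mean on western diet (136 against 108) and on chow (153 against 137). Itpr3 had 97.2, 108, 109, 111 and 115 CPM on western diet and 149, 121, 123, 118 and 172 CPM on chow. Every western diet library lay below every chow library, and chow mice 5 and 1 stood above the other chow libraries. Means were 108 ± 6.75 and 137 ± 23.45 CPM (SD, n = 5 per diet), and Itpr3 fell by 0.34 ± 0.10 on the log2 scale (SE, edgeR adjusted p = 0.0487). The call was lost with any western diet mouse left out (adjusted p = 0.0559 to 0.11), and without chow mouse 1 (0.122) or mouse 3 (0.0506). Without chow mouse 5 the fall was smaller (-0.24) and was still called (0.0358). The antisense gene Itpr3os shares 233 exon bases with Itpr3 and had 0 to 3 reads per library.

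A few genes on the lists of duct, endothelial, macrophage and stellate cell markers were called lower, beside Itpr3. Over all genes tested, 5.5% were called lower. The 8 duct markers summed to 564.8 to 673.7 CPM on western diet and 706 to 897.3 on chow, without overlap, and 2 of 7 tested, Krt8 and Krt19, were called lower. Much of that gap was Krt8, at 162.3 to 214.8 and 268.2 to 457.8 CPM. The similarly abundant Krt7 was at 229.6 to 239.9 and 210.5 to 241.3 CPM (log2 fold change 0.06), and Krt18 (-0.15) and Spp1 (0.04) were not called either. Krt19 was at 0.24 to 1.07 CPM on western diet and 1.95 to 6.69 on chow, and Cftr was at most 0.424 CPM in all libraries. The 6 endothelial markers summed to 379.6 to 441.6 and 452.1 to 508.1 CPM, also without overlap, and 1, Kdr, was called lower. Of 7 macrophage markers C1qa fell (-0.51, edgeR adjusted p = 0.000707), with sums of 59.65 to 91.73 and 74.51 to 92.36 CPM. The rest were not called. C1qb (0.11), C1qc (0.16) and Lyz2 (0.40) were higher on western diet, and Adgre1 (-0.30), Cd68 (-0.20) and Csf1r (-0.03) were lower. Of 6 tested stellate cell and fibroblast markers Pdgfrb fell (-0.44, 0.0119), with sums of 115.8 to 146.9 and 116.6 to 230.9 CPM. Their part in the Itpr3 result was not tested.

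Itpr1 and Itpr2 were not called. Itpr1 (ENSMUSG00000030102, chromosome 6, 108213096 to 108551109, plus strand) had 123, 141, 131, 149 and 136 CPM on western diet and 182, 131, 153, 157 and 144 CPM on chow. The groups overlapped, with chow mice 2 and 5 inside the western diet range, and the log2 fold change was -0.17 ± 0.08 (edgeR adjusted p = 0.149). It was called lower without chow mouse 2 (log2 fold change -0.23, adjusted p = 0.0429). Itpr2 (ENSMUSG00000030287, chromosome 6, 146108299 to 146502223, minus strand), the receptor most sensitive to IP3, had 30.2 to 42.5 CPM on western diet and 29.2 to 38.6 CPM on chow. Its log2 fold change was 0.11 ± 0.09 (edgeR adjusted p = 0.507), with an interval from -0.09 to 0.31.

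Among the IP3 receptors, Itpr2 made up a larger part on western diet, where Itpr3 was lower and Itpr2 itself was not called. Its share was 11.6% ± 1.14 on western diet and 9.22% ± 0.948 in chow libraries (SD, n = 5 each), a difference of 2.40 points (exact permutation p = 0.0238, adjusted 0.0476). The values were 10.4, 12.7, 12.5, 10.4 and 12.1% against 8.79, 8.76, 10.6, 9.81 and 8.19%, so that chow mouse 3 alone reached the western diet range. This call too was lost in 9 of 10 cases with 1 mouse left out (exact permutation, adjusted p up to 0.0952). Itpr3 held 54.7% ± 1.03 on western diet and 58.4% ± 4.16 on chow, a difference that did not pass (exact permutation p = 0.0635, adjusted 0.0952). Itpr1 held 33.7% ± 1.34 and 32.4% ± 3.44 (exact permutation p = 0.524, adjusted 0.587). The 3 shares sum to the whole family and are not independent.

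**Figure D3:**
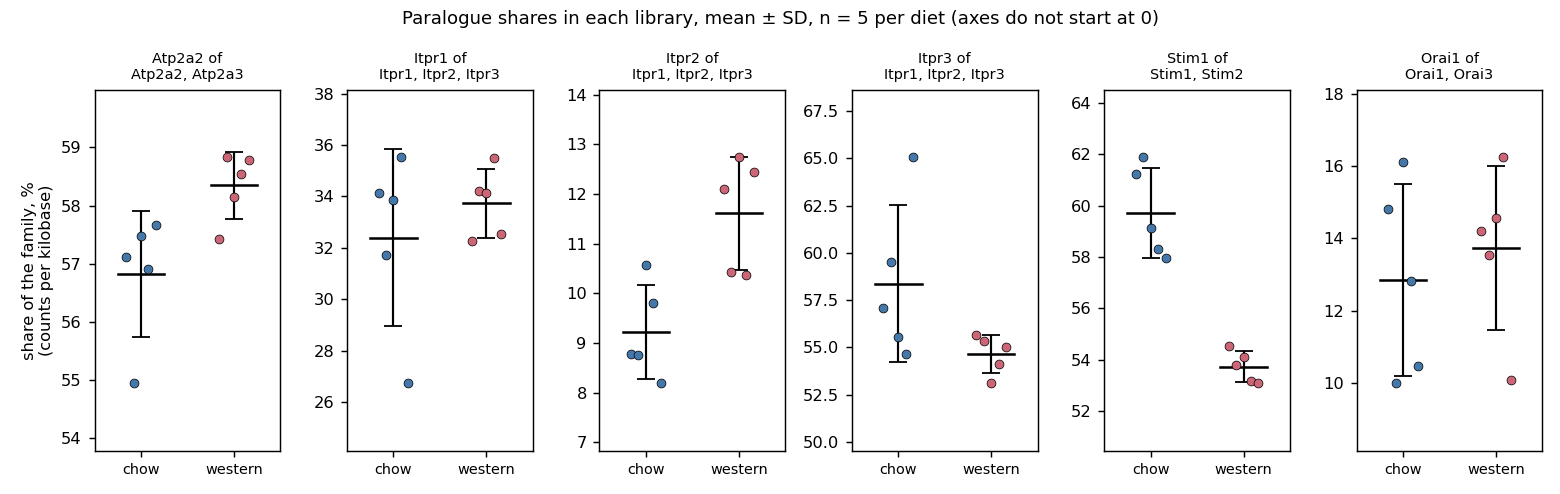
Share of a gene in its family in each library (points, y axis in percent of counts per kilobase), with the mean and SD of each diet (n = 5), on axes that do not start at 0. The Stim1 share lies between 53.1 and 54.5% in western diet libraries and between 58.0 and 61.9% in chow libraries, and the other 5 shares overlap between the diets.

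Ryr2 (ENSMUSG00000021313, chromosome 13, 11553102 to 12106945, minus strand), the ryanodine receptor of heart muscle and neurons, was barely detected. It had 5, 0, 1, 4 and 1 reads on western diet and 4, 3, 2, 4 and 9 reads on chow. In the library with 0 reads, a count of 0 allows up to 0.171 CPM (3 counts), and this limit covers counting error only. The sums of 11 and 22 reads come from groups that overlap, and Ryr2 did not pass the filter on low counts. With no filter its adjusted p was 0.569. No fold change is given at this depth.

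Stim2 (ENSMUSG00000039156, chromosome 5, 53998499 to 54121057, plus strand) encodes the store sensor that responds to small decreases of ER calcium. Its levels were 60.5, 60.3, 62.3, 62.5 and 50.7 CPM on western diet and 41.0, 40.2, 41.7, 45.1 and 48.4 CPM on chow. All western diet libraries lay above all chow libraries, and the nearest were the cage 2 mouse and chow mouse 5. Means were 59.2 ± 4.88 and 43.3 ± 3.42 CPM (SD, n = 5 per diet), and the log2 fold change was 0.45 ± 0.07 (SE, edgeR adjusted p = 0.000633), with a 95% interval from 0.31 to 0.59. Stim2 was called under all 20 alternatives tried, with log2 fold changes from 0.42 to 0.50.

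Stim1 (ENSMUSG00000030987, chromosome 7, 102267806 to 102437319, plus strand), the sensor that drives most store-operated entry, moved less and was not called. It had 142, 144, 142, 143 and 123 CPM on western diet and 131, 132, 122, 128 and 135 CPM on chow. The 4 western diet libraries of cage 4 lay above all chow libraries and the mouse of cage 2 lay among them, as it was also the lowest western diet library for Stim2. The log2 fold change was 0.10 ± 0.05 (edgeR adjusted p = 0.216), with an interval from -0.01 to 0.21, and without the cage 2 mouse it was 0.15 (adjusted p = 0.0539).

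The sensors differed in how far they moved between the diets. Stim1 made up 53.8, 54.1, 53.1, 53.2 and 54.5% of the STIM pair on western diet and 61.2, 61.9, 59.1, 58.3 and 58.0% on chow. The diets did not overlap. The mean share was 53.7% ± 0.612 on western diet and 59.7% ± 1.755 in chow libraries (SD, n = 5 each), lower by 5.97 percentage points (exact permutation p = 0.00794, the smallest that 5 against 5 libraries allow, adjusted 0.0476). In the cage 2 mouse, where both sensors were low in CPM, the share was 54.5%, close to the other western diet libraries. The percentages depend on the lengths used, 10371 bases for Stim1 and 5133 for Stim2. With raw counts the difference was -4.82 points (exact permutation, adjusted p = 0.0476). The difference per kilobase was -6.40 to -5.42 points with 1 mouse left out. The diets stayed apart in each case, so that the exact permutation p was 0.0159, the smallest 9 libraries allow. Its adjusted value (up to 0.0952) then depended on the other shares, and 8 of those 10 cases missed the threshold for that reason.

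**Figure D4:**
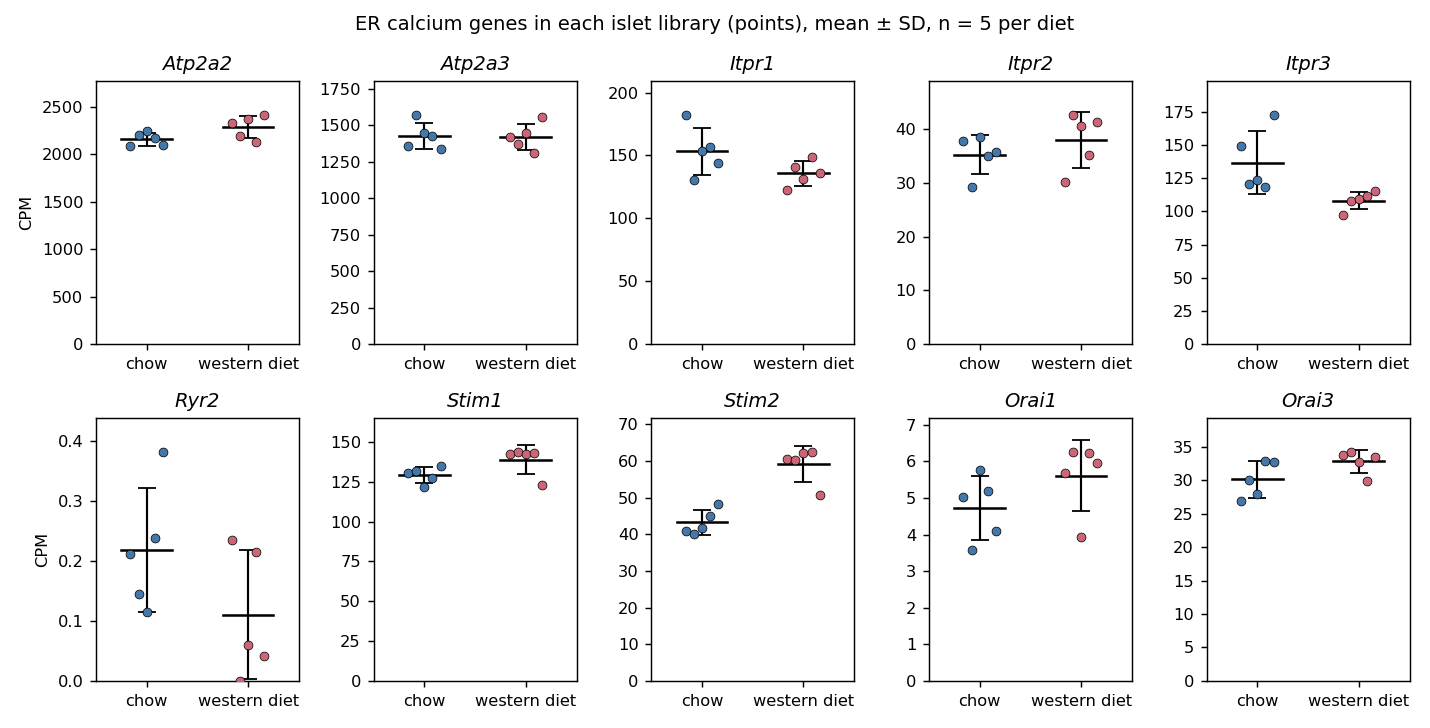
CPM (y axis, from 0) of the 10 genes in each library (points), with the mean and SD of each diet (n = 5). Stim2 lies between 50.7 and 62.5 on western diet and between 40.2 and 48.4 on chow, Itpr3 between 97.2 and 115 and between 118 and 172, and the other genes overlap between the diets.

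The 250 bases before the start sites of the STIM genes are shown with those of Itpr3, the other gene called. They are from RefSeq, build GRCm38.p6, and capitals mark CCACG on either strand, the second part of the ER stress element that binds ATF6 and XBP1.
Stim2, chr5:53998273-53998522, plus strand: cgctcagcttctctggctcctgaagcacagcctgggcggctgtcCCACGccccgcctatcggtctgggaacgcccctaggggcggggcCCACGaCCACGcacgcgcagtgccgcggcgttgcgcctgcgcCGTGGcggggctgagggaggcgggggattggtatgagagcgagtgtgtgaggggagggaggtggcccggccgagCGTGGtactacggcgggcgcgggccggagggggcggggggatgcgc
Stim1, chr7:102267569-102267818, plus strand: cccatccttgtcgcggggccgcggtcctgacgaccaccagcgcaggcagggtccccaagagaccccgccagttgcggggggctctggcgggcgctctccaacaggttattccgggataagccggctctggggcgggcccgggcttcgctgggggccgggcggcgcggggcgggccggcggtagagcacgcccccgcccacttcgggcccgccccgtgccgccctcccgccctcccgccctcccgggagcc
Itpr3, chr17:27057054-27057303, plus strand: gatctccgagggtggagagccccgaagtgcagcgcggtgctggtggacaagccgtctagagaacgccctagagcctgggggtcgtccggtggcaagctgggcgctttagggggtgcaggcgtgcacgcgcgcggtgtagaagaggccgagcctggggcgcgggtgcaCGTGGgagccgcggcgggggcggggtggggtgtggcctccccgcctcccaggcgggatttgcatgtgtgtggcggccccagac

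RefSeq promoters of 300 bases, 250 before and 50 after the start, were found for 8 of the 10 genes. Atp2a2 and Itpr1 were not among them. Over both strands, CCACG occurred 5 times for Stim2, 4 times for Itpr2, 3 times for Orai1, 2 times for Orai3, 1 time for Itpr3 and 0 times for Stim1, Atp2a3 and Ryr2. Of 32851 promoters of this length 32.8% held it, and 0.21% held it 5 or more times. The windows were rich in G and C, with a median of 71.3% for the 8 genes and 52.7% for all promoters, and they held 39 CG pairs for Stim2, 38 for Stim1 and 30 for Itpr3 against a median of 7 for all promoters. The whole ER stress element (CCAAT, 9 bases of any kind, CCACG) was in 0 of the 8 windows and in 0.119% of all promoters. The element TGACGTGG was in 0 of the 8 and in 0.676% of all. These are matches of letters, and their use in islets was not measured.

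Neither ORAI gene was called. Orai3 (ENSMUSG00000043964, chromosome 7, 127769815 to 127775150, plus strand), whose product joins store-operated and other calcium channels, had 33.8, 34.2, 32.8, 30.0 and 33.5 CPM on western diet and 26.9, 30.1, 28.0, 32.9 and 32.8 CPM on chow. The groups overlapped, with chow mice 1 and 3 below every western diet library. The log2 fold change was 0.12 ± 0.07 (edgeR adjusted p = 0.255), with an interval from -0.02 to 0.27. Orai1 (ENSMUSG00000049686, chromosome 5, 123015074 to 123030456, plus strand), the pore of the classical store-operated channel, had 3.94 to 6.26 CPM on western diet and 3.58 to 5.77 CPM on chow. It rested on 65 to 142 reads per library, and the log2 fold change of 0.25 ± 0.16 (edgeR adjusted p = 0.332) had an interval from -0.09 to 0.59. Of the ORAI pair Orai1 made up 13.7% ± 2.27 on western diet and 12.9% ± 2.67 on chow (exact permutation p = 0.587, adjusted 0.587).

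Around these genes, 143 entries of 9 lists of calcium handling genes were read from the same fit, with 139 in the table and 126 tested. Of these 4 rose and 8 fell, which is 9.52% called against 10.8% of all genes. Of the 12 calls, 6 were in the list of IP3 production and removal. The lists were chosen with results of these data known, so their counts are a description.

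In the list of genes that make or remove IP3, 1 of 24 rose and 5 fell, with a median log2 fold change of -0.08. The muscarinic acetylcholine receptor gene Chrm3, which raises IP3 in beta cells, fell from 80.0 ± 6.51 to 58.2 ± 5.43 CPM (SD, n = 5 each), a log2 fold change of -0.46 ± 0.07 (edgeR adjusted p = 0.000633). The phospholipase C gene Plch1 fell by 0.585 ± 0.08 on the log2 scale (adjusted p = 0.000227), and Casr, the extracellular calcium receptor gene, fell by 0.34 ± 0.06 (0.00195). The IP3 kinase gene Itpkb, whose product converts IP3 to a tetrakisphosphate, dropped from 366 ± 19.5 to 282 ± 23.7 CPM (-0.38 ± 0.06, adjusted p = 0.000837). The purinergic receptor gene P2ry1, also coupled to phospholipase C, rose, from 89.2 ± 10.1 to 130 ± 18.4 CPM (0.54 ± 0.11, 0.00905). For these 5 genes the lowest library of the higher diet exceeded the highest of the other, which held for 8.85% of all genes tested. They are named because they were called, so this adds no separate support. Itpkc fell by 0.42 ± 0.12 (0.0298), and its call was lost without cage 4 mouse 2 (0.0561), mouse 5 (0.0797) or the cage 2 mouse (0.059), and without chow mouse 1 (0.0851) or mouse 3 (0.0552).

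Partners of the channels and pumps showed few calls. Of 15 partners of SERCA and ryanodine receptors, S100a1, a calcium sensor protein gene, rose (log2 fold change 0.36, edgeR adjusted p = 0.00893) and 0 fell, with the junctophilin gene Jph3 at -0.16 (0.144). Among partners of IP3 receptors, Erlin1, whose product helps remove activated receptors, was at 0.21 (0.0727). Of 10 partners of store entry 0 were called. Surf4, an ER cargo receptor gene, was at 0.19 (0.0502) and was called in 5 of 20 alternatives: with DESeq2 (0.0361), no filter (0.0236) or the acinar covariate (0.0358), and without the cage 2 mouse (0.0407) or chow mouse 2 (0.0108). Trpc1 was at -0.14 (0.173). Of 5 tested relatives 0 were called, with Orai2 at -0.08 (0.53) and the Golgi pump gene Atp2c1 at 0.07 (0.566).

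In the list of calcium binding genes of the ER lumen, which also holds genes of Golgi proteins, 1 of 16 rose and 1 fell. Hspa5, which encodes the chaperone BiP, fell by 0.78 ± 0.13 on the log2 scale, from 4312 ± 721.5 to 2505 ± 328 CPM (edgeR adjusted p = 0.00727). Nucb1, which encodes a calcium binding protein of the Golgi, rose by 0.21 (0.0117), with mean levels of 284 and 246 CPM for western diet and chow. Of 6 genes of calcium extrusion at the plasma membrane 2 fell, the sodium calcium exchanger gene Slc8a1 (-0.18, 0.0432) and the pump gene Atp2b2 (-0.19, 0.0419). The Slc8a1 call was lost with any western diet mouse left out (0.0588 to 0.0828), and without chow mouse 1 (0.0631), mouse 2 (0.086) or mouse 5 (0.0943). The Atp2b2 call was lost when cage 4 mouse 1 (0.098), 2 (0.0922) or 4 (0.0847) was left out, and when chow mouse 1 (0.0934) or 3 (0.0981) was. Of 18 genes of mitochondrial calcium and ER contacts and of 18 genes of calcineurin, NFAT and CaM kinases 0 were called, with Letm1 at 0.15 (0.137), Hspa9 at 0.11 (0.153), Ppp3r1 at 0.12 (0.0998) and Nfatc2 at -0.17 (0.103). Nfatc2 was called without chow mouse 5 (0.0463).

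**Figure D5:**
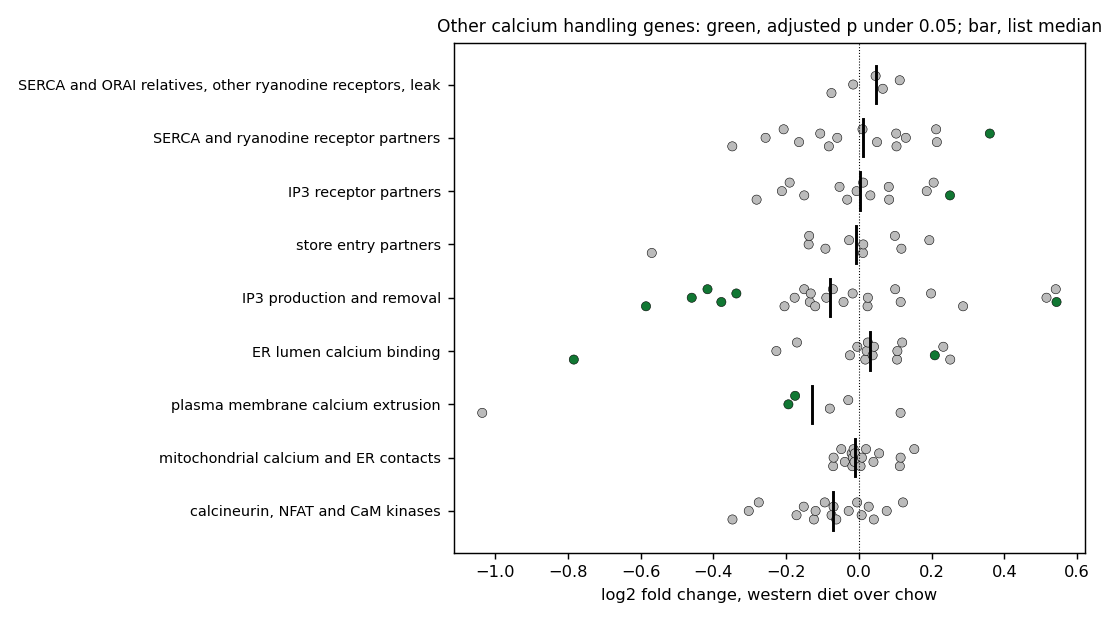
Log2 fold change of western diet over chow (x axis) of the 126 genes tested in 9 lists of calcium handling genes, with called genes in green and a bar at each list's median. In the list of IP3 production and removal, 5 green points lie below 0 and 1 above.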

How the data were processed

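RNA from pancreatic islets was sequenced in 10 libraries, 1 per mouse. The authors' deposited table gives raw read counts per gene, which are whole numbers. The submitters' processing notes list STAR 2.5, HTSeq 2 and DESeq2, with mm10 and GRCm38 as builds and no order of steps. No strand setting is given in the sources used here, so overlapping genes on opposite strands cannot be told apart. The authors also deposited log2 fold changes and p-values for the diet comparison, which appear in the closing section alone. A further 20 columns of values per sample were not used here.

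Counts were filtered with filterByExpr (minimum count 10), scaled with TMM factors and compared with the robust quasi-likelihood test of edgeR 4.0.16 in R 4.3.3, over all 15104 genes that passed, with no covariate and Benjamini-Hochberg adjustment. The SE was derived from the log2 fold change and its F statistic, and 95% intervals use the t distribution with the fitted degrees of freedom. Exact permutation tests used scipy 1.17.1. Tested on simulated data for this comparison (15104 genes simulated), edgeR found 29 of 50 genes altered 1.25-fold, 48 of 50 at 1.5-fold and all 50 at 2-fold and at 4-fold, while 14 of the 14714 unaltered genes that passed the filter were called.

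The members, gene lists and marker lists were chosen with earlier results of these data known. Of each calcium list the text names the called genes, up to 6 by p, and where fewer than 2 were called, the 2 of smallest p with at least 1 CPM; 1 gene of the lists is not reported here. All 10 members had the same coordinates in GENCODE M21. The alternatives were upper quartile and RLE factors, no filter, a mean of at least 5 CPM, DESeq2 1.42.0, limma-voom (limma 3.58.1), no robust moderation, an acinar marker covariate, a block for mouse number, leaving out each mouse, leaving out 2 mice together, and raw counts for the shares.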

Additional observations from a re-analysis of the deposited data

Results flagged for a closer look

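In groups of 5 libraries, a highest or lowest value was marked where its gap to the next took more than 0.71 of the group's range. Chance marks about 1 in 20 groups, and 4 of the 32 groups looked at were marked. Western diet cage 2 mouse 5, the only mouse of that cage, was low for both sensors: Stim1 was at 122.8 CPM against 142.3 to 143.7 CPM in the other western diet libraries, and Stim2 was at 50.7 CPM against 60.34 to 62.45 CPM. Orai1 was at 3.941 CPM in western diet cage 4 mouse 5 against 5.684 to 6.256 CPM in the others. The Atp2a2 share of the SERCA pair was 54.94% in chow cage 3 mouse 2 against 56.9 to 57.67% in the other chow libraries.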

How the results depend on the processing

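Stim2 was called in all 20 alternatives, and Itpr3 in 10 of 20, all with the same direction. The Itpr3 call was lost with no filter (-0.34, adjusted p = 0.13), with the acinar covariate (-0.33, 0.075) and without the cage 2 mouse and chow mouse 1 together (-0.33, 0.131), where in each case 0 members fell, and 7 times with 1 mouse left out. Atp2a3 changed sign in 3 alternatives without ever being called, and Atp2a2, Itpr2, Stim1, Orai1 and Orai3 were higher in all 20 and called in none. With 1 mouse left out, 0 to 2 members fell, 376 to 921 genes rose and 562 to 892 fell over all genes, and 3 to 7 genes of the calcium lists rose and 5 to 10 fell. Rises fell to 376 genes without chow mouse 1, 431 without chow mouse 3, 400 without cage 4 mouse 4 and 476 without cage 4 mouse 5.

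Mouse numbers were not taken to pair the diets, because the labels give no link. Same-numbered mice correlated at -0.12 to 0.08 in their deviations from the group means, with 0 of 5 pairs over 0.1. Differently numbered mice correlated at -0.23 to 0.21. These correlations cannot exclude a pairing. With mouse number as a replicate block, 342 genes rose and 499 fell, and 1 gene of the calcium lists rose. Stim2 and Itpr3 stayed called. The calls of S100a1 (edgeR adjusted p = 0.0567), Nucb1 (0.06), Slc8a1 (0.083) and Atp2b2 (0.12) were lost. Number 3 occurs on chow alone, and number 5 occurs in western diet cages 4 and 2. The block thus leaves less information on diet, and lost calls can follow from that. Slc8a1 was also lost with no filter (0.1), and Atp2b2 with limma-voom (0.054) and without robust moderation (0.0521). The 3 called shares kept their direction: with 1 mouse left out the difference was 1.06 to 1.76 points for Atp2a2, 2.12 to 2.73 for Itpr2 and -6.40 to -5.42 for Stim1. With 9 libraries the smallest exact p is 0.0159, or 0.0952 adjusted over 6 when 1 share reaches it, so that lost calls there follow in part from fewer libraries. For the Stim1 share, which never overlapped between the diets, the lost calls follow from this alone. Without the cage 2 mouse and chow mouse 1 together the differences were 1.83, 2.17 and -5.78 points (adjusted p = 0.0857, 0.171 and 0.0857). In raw counts, with no division by length, they were 1.49, 2.56 and -4.82 points (exact permutation, adjusted p = 0.0476 each). Upper quartile factors gave 42.4% of calls as rises against 48.9%. Depth limits Ryr2 and Orai1.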

Other observations

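In the authors' deposited table, Stim2 had a log2 fold change of 0.45 (deposited adjusted p = 5.9e-07) and Itpr3 one of -0.34 (0.00601). The same deposited table gave adjusted p-values of 0.134 for Itpr1, 0.226 for Stim1, 0.227 for Atp2a2, 0.318 for Orai3, 0.369 for Orai1, 0.548 for Itpr2 and 0.95 for Atp2a3, so that the same 2 members passed 0.05.

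The ryanodine receptors other than Ryr2 are named here after their values were seen. Ryr1 levels were 0.0393 ± 0.0404 CPM (western diet) and 0.00847 ± 0.0189 CPM (chow), and Ryr3 had 0.899 ± 0.257 and 0.839 ± 0.315 CPM (SD, n = 5 per diet, Ryr3 edgeR adjusted p = 0.873). The SERCA regulator gene Pln, known from heart muscle, had 0.0311 ± 0.0496 and 0.0609 ± 0.0429 CPM. Mrln, on the same list of partners, was far higher, at 23.7 ± 2.69 CPM on western diet and 28.2 ± 5.42 CPM on chow. It was not called (log2 fold change -0.26, edgeR adjusted p = 0.217). Both were also named after their values were seen.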
